A study of Rattus norvegicus with 12 samples.

Results

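The genes described here are 10 macrophage genes, most of them cell-surface receptors: Csf1r, Cd68, Lyz2, Lilrb2, Mrc1, Cd163, Lyve1, Marco, Msr1 and Arg1. They were chosen by name, and each was matched to the array through the RefSeq accession of its probe. Of the 10 genes, 9 had a probe, in each case 1 probe with 1 spot per array, among 13903 genes with a probe. Marco was not well above background on any array and was not tested, and no probe was matched to Msr1, so 8 of the 10 entered the tests, among 12353 genes with a tested probe. The study profiled vein RNA of male rats on 12 Agilent arrays with 1 dye, 3 arrays on each of 4 days. Day 0 rats were not operated, and grafts, made by bypassing the carotid artery with the external jugular vein, were taken 7, 14 or 28 days after surgery. The labels give no strain, age, genotype or drug, and nothing in them ties an array to a separate animal, so the spread behind the p-values may be technical. Replicates are numbered 1 to 3 as names only.

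Macrophages in a vessel wall come from cells that live in the tissue and from blood monocytes that enter it. The receptor encoded by Csf1r binds colony-stimulating factor 1 and interleukin-34, which keep these cells alive and drive their differentiation. Scavenger receptors such as the products of Marco, Msr1, Cd163 and Mrc1 take up modified lipoproteins, haemoglobin bound to haptoglobin, glycoproteins and debris, and Cd163, Mrc1 and Lyve1 are widely used to mark macrophages resident in tissue, including those around vessels. Lyve1 also marks lymphatic endothelium, and Arg1 is used to mark macrophages exposed to interleukin-4.

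The promoters of 6 members are shown because these members include both genes that rose in grafts and genes that did not. Each is the 250 bases before the gene start in RefSeq on the assembly GRCr8, printed 5′ to 3′ on the strand of the gene. Capitals mark GAGGAA, core letters bound by PU.1 (the myeloid transcription factor encoded by Spi1), or the same letters on the other strand, TTCCTC. The windows are chr17:82157475-82157724 on the plus strand for Mrc1, chr10:54882442-54882691 on the minus strand for Cd68, chr7:54798012-54798261 on the minus strand for Lyz2, chr1:74241950-74242199 on the plus strand for Lilrb2, chr4:158770524-158770773 on the plus strand for Cd163 and chr1:174410978-174411227 on the minus strand for Lyve1.
Mrc1: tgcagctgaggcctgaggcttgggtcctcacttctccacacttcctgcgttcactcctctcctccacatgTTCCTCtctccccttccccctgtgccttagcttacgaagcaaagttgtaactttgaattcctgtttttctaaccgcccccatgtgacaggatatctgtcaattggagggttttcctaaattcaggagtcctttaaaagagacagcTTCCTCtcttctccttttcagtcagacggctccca
Cd68: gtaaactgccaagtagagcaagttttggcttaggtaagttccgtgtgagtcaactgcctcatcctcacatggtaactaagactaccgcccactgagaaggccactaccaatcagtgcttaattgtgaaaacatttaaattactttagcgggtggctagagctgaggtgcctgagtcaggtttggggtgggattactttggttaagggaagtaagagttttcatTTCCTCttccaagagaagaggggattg
Lyz2: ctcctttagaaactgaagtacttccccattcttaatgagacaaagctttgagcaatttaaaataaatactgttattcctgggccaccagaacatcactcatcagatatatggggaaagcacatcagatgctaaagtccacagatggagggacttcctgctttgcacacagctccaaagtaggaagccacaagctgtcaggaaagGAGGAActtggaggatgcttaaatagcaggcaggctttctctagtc
Lilrb2: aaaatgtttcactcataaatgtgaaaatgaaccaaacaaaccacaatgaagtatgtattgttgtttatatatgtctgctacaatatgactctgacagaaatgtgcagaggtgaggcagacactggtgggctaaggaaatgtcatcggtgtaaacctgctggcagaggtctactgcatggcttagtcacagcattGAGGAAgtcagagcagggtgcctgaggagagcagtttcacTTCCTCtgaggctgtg
Cd163: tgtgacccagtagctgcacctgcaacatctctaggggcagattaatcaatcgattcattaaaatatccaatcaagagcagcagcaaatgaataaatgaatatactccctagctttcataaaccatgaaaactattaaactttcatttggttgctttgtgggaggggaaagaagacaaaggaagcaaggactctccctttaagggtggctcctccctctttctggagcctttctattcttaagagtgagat
Lyve1: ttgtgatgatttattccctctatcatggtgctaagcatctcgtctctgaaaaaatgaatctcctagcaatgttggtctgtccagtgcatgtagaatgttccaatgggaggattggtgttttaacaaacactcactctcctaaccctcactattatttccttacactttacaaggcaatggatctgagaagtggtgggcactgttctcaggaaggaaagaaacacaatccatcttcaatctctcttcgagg
Promoter windows were matched for 8 of the 10 members, and 6 of these 8 held GAGGAA on either strand, against 23.3% of 33469 RefSeq windows of the same length. Those 6 were Mrc1, Cd68, Lyz2, Lilrb2, Csf1r and Marco, and the windows of Csf1r and Marco are not printed above. Msr1 and Arg1 had no matched window, and Arg1 was called higher on every graft day. The windows of Mrc1 and Lilrb2 each held it 2 times, the matches starting 180 and 35 bases before the gene start in Mrc1 and 56 and 16 bases before it in Lilrb2. In Cd68 the match started 27 bases before the gene start, and in Lyz2 it started 46 bases before it. The C/EBP letters TTNCNNAA were present in 7 of 8 windows, with Lyve1 the exception, against 37.2% of all windows. The E box letters CANNTG were present in 6 of 8, against 65.5%, and the AP-1 letters TGANTCA in Cd68 alone, against 6.34%. Marco, whose window held GAGGAA, was not detected on these arrays. These matches are descriptions of letters in a window and were not tested.

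Levels are given as log2 of the processed spot intensity minus the 75th percentile of the gene probes on that array, so that 0 is the level of that percentile, and levels of different probes are not compared. A change is the difference of the day means on that scale with its standard error, and a member was called changed where limma's adjusted p over 21063 tested probes was under 0.05. Between 71.9% and 82.6% of gene spots per array were well above background, and no spot of these arrays was saturated. On replicate 3 of day 0 and replicate 3 of day 7 the scanner software marked 460 and 393 non-uniform spots, where each remaining array had 2 to 11. The same 2 arrays had a summed linear level of 7 mast cell markers of 111.5 and 64.0, against 1.07 to 3.06 on the other 10, and of 10 T and NK cell markers of 43.5 and 36.0, against 2.42 to 11.4. Tpsb2 and Cd3g were the only markers of these lists with a mean day 0 level above 0 (2.91 and 1.27). Linear sums follow the brightest probes, so each of these sums may rest mainly on 1 probe. Without the 2 arrays with many non-uniform spots, 5, 6 and 5 members were again called higher at days 7, 14 and 28. Csf1r then passed on all 3 days and Mrc1 at day 14 alone, as given beside each. The share of all tested probes called without these 2 arrays is not given here. The 12 macrophage markers, which include Cd68 and Csf1r and were all well above background on at least 1 array of each day, summed in linear level to 18.7 to 89.1 at day 0, 174.8 to 386.8 at day 7, 286.9 to 328.2 at day 14 and 127.8 to 184.8 at day 28. In whole-tissue RNA, fewer cells of a type and less RNA per cell cannot be told apart.

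**Figure D1:**
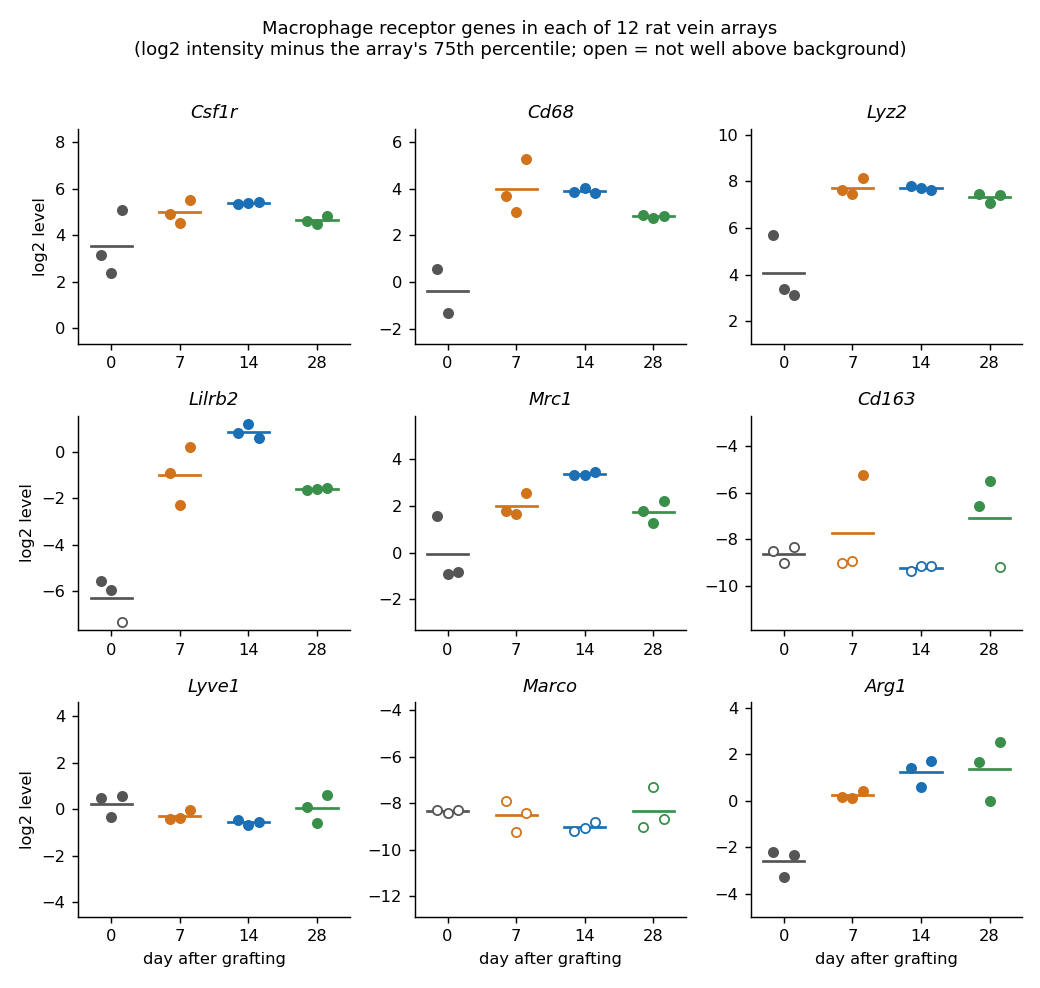
Level of each member with a probe on each array (y axis: log2 processed intensity minus the array's 75th percentile; x axis: day after grafting; 1 point per array, 3 arrays per day, with a bar at the day mean; open points were not well above background). Each panel spans the same number of log2 units. Lyz2, Lilrb2, Cd68 and Arg1 show day 0 arrays below all 9 graft arrays, Lyve1 moves little, and Cd163 and Marco lie mostly or wholly below the background limit.

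Against day 0, 5 of the 8 tested members were higher at day 7, 6 at day 14 and 5 at day 28, and none was lower. Cd68, Lyz2, Lilrb2, Mrc1 and Arg1 were higher on all 3 days, Csf1r at day 14 alone, and Lyve1 and Cd163 passed on no day. Over all tested probes, 18% were called higher at day 7, 20.5% at day 14 and 16.5% at day 28, 15.5%, 17.3% and 17.6% were called lower, and 33.5%, 37.8% and 34.1% were called in either direction. For 5, 7 and 4 of the 7 tested members other than Cd163, whose arrays were mostly below background, the arrays of days 7, 14 and 28 all lay on the same side of the day 0 arrays, and this held for 40.1%, 51.1% and 48.8% of all tested probes. With the 3 graft days averaged, 6 members were higher than at day 0 and none lower, while 22.2% of probes were called higher, 21.3% lower and 43.5% in either direction. The median change over the 8 tested members was 2.44, 3.53 and 2.51 on the log2 scale, beside -0.03, 0.02 and -0.05 over all tested probes. Across all 4 days limma's F test called the same 5 members that rose on every day, with 40.8% of probes called, and Csf1r had an adjusted p of 0.078.

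Among the genes of macrophages in general, Csf1r, the receptor for colony-stimulating factor 1, had the smallest called change at day 14. Its level at day 0 was 3.14, 2.39 and 5.08 in replicates 1 to 3, and at day 7 it was 4.89, 4.52 and 5.51. At day 14 the 3 arrays read 5.33, 5.37 and 5.41, and at day 28 they read 4.59, 4.49 and 4.81. Replicate 3 of day 0 lay within the range of the day 7 arrays and above all day 28 arrays, and the groups were separate only at day 14. The change from day 0 was 1.84 ± 0.55 at day 14 (limma adjusted p = 0.024). It was 1.44 ± 0.55 at day 7 (adjusted p = 0.068) and 1.096 ± 0.55 at day 28 (adjusted p = 0.15), which did not pass. Without replicate 3 of day 0 and replicate 3 of day 7, the changes were 1.94, 2.61 and 1.87 at days 7, 14 and 28, and all 3 passed (adjusted p = 0.00080, 8.1e-05 and 0.00066). Days 7 and 28 also passed without replicate 3 of day 0 alone, with quantile normalization (1.75 and 1.59), with the deposited values (1.75 and 1.58) and with array weights (1.91 and 1.66). The day 14 call was lost with the normexp background correction (1.82, adjusted p = 0.058) and with only the arrays of the 2 days fitted (adjusted p = 0.090). Its adjusted p was also over 0.05 without replicate 1 of day 0 (1.64, adjusted p = 0.063), without replicate 2 of day 0 (1.26, adjusted p = 0.071), and without replicate 1, 2 or 3 of day 14 (1.86, 1.83 and 1.82, with adjusted p = 0.060, 0.058 and 0.066).

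Cd68, a glycoprotein of lysosomes and endosomes that marks macrophages, rose on all 3 days. At day 0 replicates 1 and 2 read 0.56 and -1.36. The spot of replicate 3 had been marked as an outlier and was left out, so each test of Cd68 used 2 day 0 arrays. The arrays read 3.67, 3.01 and 5.27 at day 7, 3.85, 4.02 and 3.81 at day 14, and 2.85, 2.76 and 2.84 at day 28. All graft arrays exceeded both day 0 arrays, and the day 28 arrays lay below all others after grafting. The change from day 0 was 4.38 ± 0.66 at day 7 (limma adjusted p = 0.0011), 4.29 ± 0.66 at day 14 (adjusted p = 0.00096) and 3.21 ± 0.66 at day 28 (adjusted p = 0.0057). With the marked spot kept, at a level of 1.53, the changes were 3.72, 3.64 and 2.57 and all 3 still passed. The size rests on which day 0 array is used: without replicate 1 the changes were 5.34, 5.25 and 4.17, and without replicate 2 they were 3.42, 3.33 and 2.25, all of which passed. Without replicate 3 of day 7 the day 7 change was 3.74.

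Lyz2 encodes lysozyme of macrophages and neutrophils. Its day 0 level was 5.72, 3.39 and 3.14. It read 7.63, 7.44 and 8.14 at day 7, 7.82, 7.73 and 7.64 at day 14, and 7.48, 7.06 and 7.42 at day 28. The graft arrays lay within 1.08 log2 units of each other and above all day 0 arrays, which spread over 2.58. The changes were 3.65 ± 0.55 at day 7, 3.65 ± 0.55 at day 14 and 3.24 ± 0.55 at day 28 (limma adjusted p = 0.00080, 0.00063 and 0.0018), that is 12.6-fold, 12.5-fold and 9.42-fold. Without replicate 1 of day 0 they were 22.2-fold, 22.1-fold and 16.6-fold, and without the 2 arrays with many non-uniform spots the day 7 change was 7.88-fold. RefSeq lists a neighbouring lysozyme gene, Lyc2, that shares the synonym Lyz2, so the signal may be split or shared between them. The summed level of 7 neutrophil markers was 0.56 to 1.83 at day 0, 2.23 to 33.5 at day 7, 4.46 to 5.08 at day 14 and 0.71 to 0.87 at day 28, and its part in the level of Lyz2 was not tested.

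Lilrb2, in RefSeq also listed as Pirb and Lilrb3, encodes an inhibitory immunoglobulin-like receptor of myeloid cells that binds class I histocompatibility molecules. In the fit of all arrays it had the largest change of the members on each graft day. With the scan as a fixed term Arg1 exceeded it at day 28 (5.23 against 4.197), values that rest on 1 day 28 array. With the normexp background correction the rise of Lilrb2 in grafts was smaller than that of Cd68 (within-array difference -0.58), a difference that did not pass. Its day 0 level was -5.55, -5.95 and -7.32, with replicate 3 not well above background. It read -0.92, -2.29 and 0.19 at day 7 and 0.78, 1.19 and 0.57 at day 14, and then -1.65, -1.60 and -1.55 at day 28. The day 14 arrays lay above all others, and no graft array came within 3.26 log2 units of the highest day 0 array. The changes from day 0 were 5.26 ± 0.58, 7.12 ± 0.58 and 4.67 ± 0.58 at days 7, 14 and 28 (limma adjusted p = 0.00013, 1.8e-05 and 0.00036), or 38.4-fold, 139-fold and 25.5-fold. The day 7 change was 59.9-fold without replicate 2 of day 7, 25.4-fold without replicate 3 of day 7, and 17.7-fold without the 2 arrays with many non-uniform spots.

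Lilrb2 was also the only member called between graft days. It fell by 2.45 on the log2 scale from day 14 to day 28 (SE 0.58, limma adjusted p = 0.043). Within the scan that held 2 arrays of each of those days the difference was -2.51, and with the scan as a fixed term it did not pass (adjusted p = 0.15). The adjusted p was over 0.05 without replicate 1 of day 7 (0.072), without replicate 1, 2 or 3 of day 14 (0.15, 0.14 and 0.099), or without replicate 1, 2 or 3 of day 28 (0.15, 0.13 and 0.094), with the change between -2.58 and -2.28. Without the 2 arrays with many non-uniform spots it was 0.0025. From day 7 to day 14 its change of 1.85 ± 0.58 did not pass (adjusted p = 0.14). The arrays of these days did not overlap, as held for 33.4% of all tested probes. This change passed without replicate 3 of day 7 (2.45, adjusted p = 0.026), without the 2 arrays with many non-uniform spots (2.45, adjusted p = 0.0044) and with array weights (1.87, adjusted p = 3.9e-05).

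Mrc1 encodes the mannose receptor, which takes up glycoproteins with mannose ends. At day 0 it read 1.58 in replicate 1 and -0.90 and -0.81 in replicates 2 and 3. It read 1.79, 1.68 and 2.56 at day 7, 3.34, 3.34 and 3.45 at day 14, and 1.77, 1.27 and 2.23 at day 28. Replicate 1 of day 0 lay just below the day 7 arrays and within the day 28 range, while the day 14 arrays were above all others. The changes were 2.05 ± 0.58 at day 7 (limma adjusted p = 0.020), 3.42 ± 0.58 at day 14 (adjusted p = 0.0012) and 1.80 ± 0.58 at day 28 (adjusted p = 0.035).

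The day 14 call of Mrc1 held whichever array was left out, and its other calls did not. At day 7 the adjusted p was 0.071 without replicate 2 of day 0, 0.062 without replicate 3 of day 0 and 0.061 without replicate 3 of day 7, with changes of 1.63, 1.67 and 1.78. At day 28 it was 0.11 without replicate 2 of day 0, 0.10 without replicate 3 of day 0, 0.051 without replicate 1 of day 14, 0.088 without replicate 1 of day 28 and 0.11 without replicate 3 of day 28, with changes of 1.38, 1.42, 1.80, 1.80 and 1.57. Without both replicate 3 of day 0 and replicate 3 of day 7, the changes were 1.39 at day 7 and 1.42 at day 28 (adjusted p = 0.13 and 0.089), and with the normexp background correction they were 1.84 and 1.77 (adjusted p = 0.054 and 0.071). With only the arrays of the 2 days fitted, the adjusted p was 0.11 and 0.12. Without replicate 1 of day 0 the changes were larger, at 2.86, 4.23 and 2.61 for days 7, 14 and 28. The differences between graft days, 1.36 ± 0.58 for day 14 against day 7 and -1.61 ± 0.58 for day 28 against day 14, did not pass (adjusted p = 0.28 and 0.13). The arrays of neither pair of days overlapped, as held for 33.4% and 51.3% of all tested probes. Both differences passed with only the arrays of the 2 days fitted (adjusted p = 0.049 and 0.0073), with array weights (1.7e-05 and 7.9e-07) and without replicate 1 of day 0 (0.031 and 0.014).

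Cd163, the scavenger receptor for haemoglobin bound to haptoglobin, was well above background on 3 of 12 arrays. These were replicate 3 of day 7 at -5.25 and replicates 1 and 2 of day 28 at -6.58 and -5.48. The other 9 arrays read between -9.33 and -8.33, which is below the lowest signal well above background on each. All day 0 and day 14 arrays were among them, so that no fold against either day can be given from the measured means alone. None of its comparisons passed (limma adjusted p = 0.56, 0.68 and 0.28 for days 7, 14 and 28 against day 0).

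Lyve1, a receptor for hyaluronan, stayed within 1.28 log2 units over all 12 arrays. It read 0.46, -0.32 and 0.58 at day 0 and -0.44, -0.40 and -0.05 at day 7. It read -0.47, -0.66 and -0.56 at day 14 and 0.11, -0.60 and 0.62 at day 28. The day 14 arrays lay below all day 0 arrays, and the other days overlapped with day 0. Its changes of -0.53 ± 0.32, -0.80 ± 0.32 and -0.19 ± 0.32 at days 7, 14 and 28 did not pass (limma adjusted p = 0.23, 0.074 and 0.67). With the scan as a fixed term the values were 0.37, 0.19 and 0.56, none of which passed. In that fit day 28 meets day 0 only in a scan with 1 day 28 array and 2 day 0 arrays. That day 28 array, replicate 3, had the highest Lyve1 level of all arrays, so the turned signs rest on it. The day 14 change passed without replicate 2 of day 0 (-1.08, limma adjusted p = 0.025) and without replicate 2 of day 28 (-0.80, adjusted p = 0.043).

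Lyve1 is also expressed by lymphatic endothelium, whose markers moved in both directions. Of the 6 of 8 such markers with a probe, 3 were lower and none higher at day 7, 3 lower and 1 higher at day 14, and 1 lower and 1 higher at day 28. Over all tested probes, 15.5%, 17.3% and 17.6% were called lower on these days and 18%, 20.5% and 16.5% higher, and the day 28 counts are near those shares. Prox1, the transcription factor that defines lymphatic endothelium, was well above background on all day 0 arrays and on none at days 7 and 14, at least 5.003-fold lower at day 7 and 5.88-fold lower at day 14 (limma adjusted p = 6.2e-05 and 6.7e-05). Ccl21, a chemokine of lymphatic vessels, fell by 3.68 at day 7 and by 5.71 at day 14 (adjusted p = 0.00076 and 4.6e-05), and its change of -0.76 at day 28 did not pass (adjusted p = 0.30). Nts fell by 4.38 and 4.99 at days 7 and 14 (adjusted p = 0.038 and 0.019), and its change of -2.30 at day 28 did not pass (adjusted p = 0.23). Its day 0 level was 1.42, -3.98 and -4.18 in replicates 1 to 3, so the size of these changes leans on replicate 1. Replicate 3 of day 7 and replicate 3 of day 14 were not well above background for Nts.

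The remaining 3 markers, given after their values were seen so that the list is whole, were called lower on no day. Flt4, a receptor for lymphatic growth factors, changed by -0.35 and 0.25 at days 7 and 14, which did not pass, and rose by 1.34 at day 28. Pdpn rose by 1.58 at day 14, with 1.53 and 1.15 at days 7 and 28 not passing, and Reln passed on no day (0.08, -0.76 and 1.15). The summed linear level of the 6 markers was 26.7 to 44.5 at day 0, 4.26 to 5.91 at day 7, 2.71 to 3.52 at day 14 and 17.2 to 26.3 at day 28. Ccl21 was the brightest of the 6 on every day 0 array (4.44 to 5.45) and every day 28 array (3.86 to 4.57). The sum on those days therefore follows mainly Ccl21 and not the markers as a group. The part of these markers in the level of Lyve1 was not tested.

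**Figure D2:**
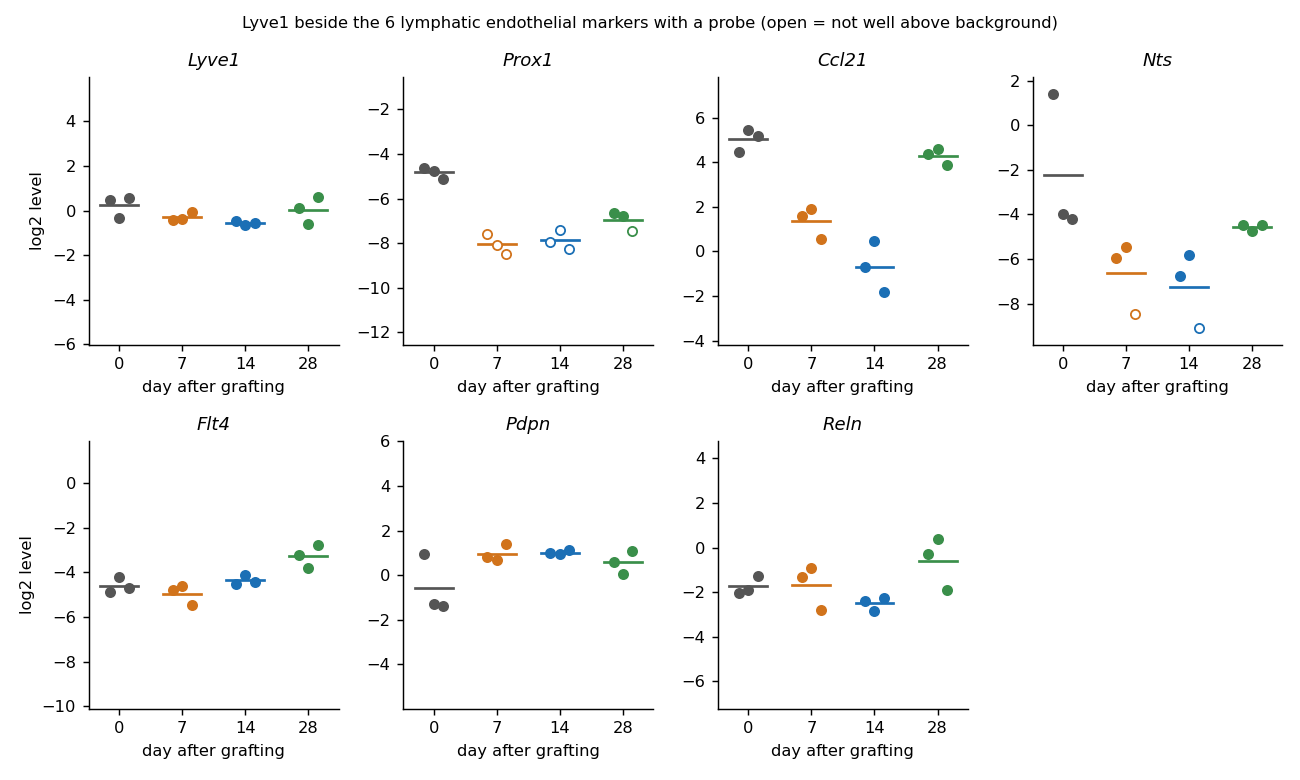
Lyve1 beside the 6 markers of lymphatic endothelium with a probe (y axis: log2 level as above, each panel spanning the same number of units; x axis: day after grafting; 1 point per array, 3 per day unless a marked spot was left out, bars at day means, open points not well above background). Prox1, Ccl21 and Nts are lower on all day 7 and day 14 arrays than on any day 0 array. Reln lies below all day 0 arrays at day 14 but not at day 7, and Flt4 and Pdpn show no such drop. Lyve1 stays between -0.66 and 0.62.

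Marco, a scavenger receptor that binds bacteria and particles, was not well above background on any of the 12 arrays. Its measured values ran from -8.44 to -8.28 at day 0 and from -9.24 to -7.31 in grafts, and they have no order. Neither a rise nor a fall can be read for it on these arrays. Msr1, the class A scavenger receptor for modified lipoproteins, has no value here.

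Arg1 encodes arginase 1, which converts arginine to ornithine and urea. It read -2.19, -3.25 and -2.32 at day 0. It read 0.17, 0.14 and 0.41 at day 7, 1.40, 0.59 and 1.73 at day 14, and 1.68, -0.02 and 2.51 at day 28. All graft arrays exceeded all day 0 arrays, and the spread was widest at day 28. The changes were 2.83 ± 0.57, 3.83 ± 0.57 and 3.98 ± 0.57 at days 7, 14 and 28 (limma adjusted p = 0.0038, 0.00057 and 0.00077), or 7.12-fold, 14.2-fold and 15.7-fold. Without replicate 2 of day 28 the day 28 change was 25.7-fold. Arg1 was the only called member whose day 28 mean was not below its day 14 mean, and the difference of 0.15 ± 0.57 did not pass (adjusted p = 0.90).

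Arg1 is also abundant in liver cells. The summed level of 11 of 12 liver markers was 1.39 to 8.33 at day 0, 1.37 to 2.03 at day 7, 3.65 to 14.4 at day 14 and 0.52 to 0.60 at day 28, where Fgg, Apoa2, Tat and Ahsg were not well above background. In replicates 1 to 3 of day 14 the liver sum was 11.1, 3.65 and 14.4, in the same order of arrays as Arg1, and its part was not tested. The summed level of 9 of 10 skeletal muscle markers was 8.15 to 10.3 at day 0. It was 336.2, 37.2 and 629.5 in replicates 1 to 3 of day 28, in the same order of arrays as Arg1, and its part was not tested. The macrophage, blood endothelium and fat cell sums ran in the Arg1 order on both days, as did skeletal muscle at day 14. At day 28 the liver sum was 0.523, 0.540 and 0.601 in replicates 1 to 3, another order than that of Arg1. These orders of 3 arrays are descriptions only, and the part of any of these cell types in the level of Arg1 was not tested.

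**Figure D3:**
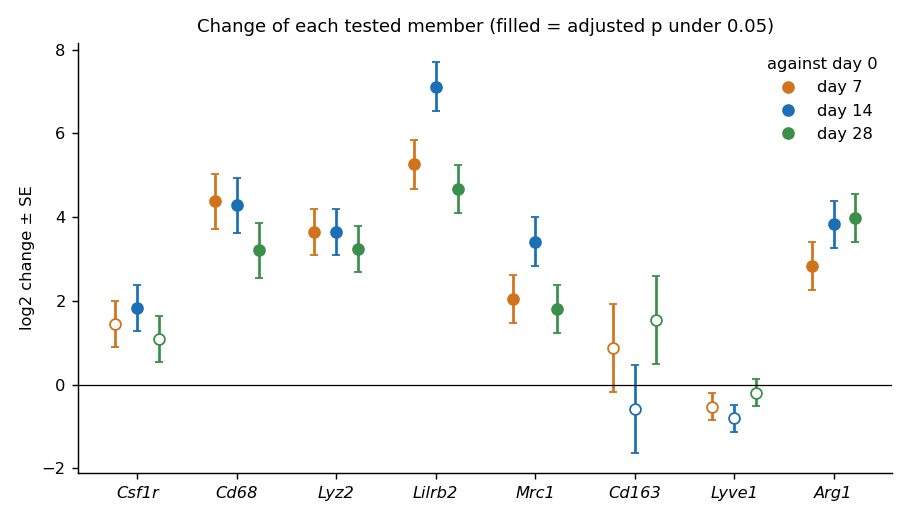
Change of each tested member from day 0 (y axis: log2 change with its standard error as the bar; x axis: member; colours: day 7, 14 and 28 against day 0, with 3 arrays a day, and 2 day 0 arrays for Cd68; filled points passed at an adjusted p under 0.05). Lilrb2 has the largest change on each day, up to 7.12 at day 14, and Lyve1 and Cd163 have no filled point.

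Between graft days, 1 of 24 member changes passed. For day 14 against day 7 none of 8 was called by limma, with 3.25% of all tested probes called (1.4% higher and 1.86% lower), and 2 members, Mrc1 and Lilrb2, had an unadjusted p under 0.05. Mrc1, Lyve1, Lilrb2 and Arg1, 4 of the 7 other than Cd163, had arrays that did not overlap, as had 33.4% of probes. For day 28 against day 14, 1 of 8 was called, Lilrb2, with 4.75% of probes called (2.27% higher and 2.48% lower), and 5 of 7 did not overlap, against 51.3% of probes. For day 28 against day 7 none was called, with 1.85% of probes called (0.722% higher and 1.13% lower), and 0 had an unadjusted p under 0.05, while Cd68 did not overlap, against 35.2% of probes. By mean level the order of days was day 14, day 7, day 28, day 0 for Csf1r, Lilrb2 and Mrc1, and day 7, day 14, day 28, day 0 for Cd68 and Lyz2. It was day 28, day 14, day 7, day 0 for Arg1 and day 0, day 28, day 7, day 14 for Lyve1. Apart from the step from the lowest graft day down to day 0 in Cd68, Lyz2, Lilrb2, Mrc1 and Arg1, no step between neighbouring days in these orders passed the test.

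The days were spread over 4 scans, taken from the scan times in the file headers. The first held 2 arrays each of days 14 and 28, the second 3 of day 7 and 1 of day 14, the third 2 of day 0 and 1 of day 28, and the fourth 1 of day 0. Within the third scan the day 28 array differed from the mean of the day 0 arrays by 1.89 for Mrc1, 3.23 for Cd68, 2.87 for Lyz2, 4.197 for Lilrb2, 2.04 for Csf1r and 5.23 for Arg1. It differed by 0.56 for Lyve1, and Cd163 was below the background limit on all 3 arrays of that scan. No scan held day 0 with day 7 or day 14, so those comparisons with the scan as a fixed term run through shared days. Changes from day 0 to day 28 in that fit equal the differences within the third scan, which rest on 1 day 28 array. In that fit all 16 changes called above kept their sign and 5 kept their call, namely Lilrb2 and Arg1 at days 14 and 28 (6.70 and 5.56, then 4.197 and 5.23) and Csf1r at day 14 (2.89, adjusted p = 0.040). At day 28 Csf1r passed in that fit (2.04, adjusted p = 0.046). With the scan as a random term all 16 kept their call.

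The members were then set against Cd68 within each array, which asks whether a member changed by another amount than a gene of macrophages in general. The difference of graft from day 0 was tested by an exact two-sided permutation test, with p-values adjusted by Benjamini-Hochberg over 7 members. Because Cd68 has 2 day 0 arrays, there were 55 choices and the smallest p possible was 0.0182. Mrc1 rose by less than Cd68, with a difference of -1.92 (member minus Cd68 from 0.46 to 1.02 at day 0 and from -2.71 to -0.36 in grafts, adjusted p = 0.0424). Csf1r also rose by less, with a difference of -1.73 (from 2.58 to 3.74 at day 0 and from 0.24 to 1.97 in grafts, adjusted p = 0.0424). For Lyve1 the difference was -4.30 (from -0.11 to 1.03 at day 0 and from -5.31 to -2.21 in grafts, adjusted p = 0.0424).

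The other differences from Cd68 did not pass. They were -0.92 for Lyz2, 1.20 for Lilrb2 and -0.28 for Arg1 (exact permutation test, adjusted p = 0.127, 0.127 and 0.745), and -3.21 for Cd163 (adjusted p = 0.0636), which was mostly below background. With the normexp background correction no member passed, and the difference of Lilrb2 turned to -0.58 (exact permutation test, adjusted p = 0.488). With the marked Cd68 spot kept there were 220 choices, and the result for Mrc1 was lost (-0.89, adjusted p = 0.331). Lyve1 and Csf1r remained (-3.82 and -1.85, both adjusted p = 0.0159) and Lilrb2 rose by more than Cd68 (2.37, adjusted p = 0.0318). Lyz2 and Arg1 then turned to 0.20 and 0.23, which did not pass. With the deposited values Mrc1 was also lost (-0.95, adjusted p = 0.242), and Lyve1 and Csf1r remained. Cd163 and Lilrb2 passed with those values (-2.75 and 2.28, adjusted p = 0.0239 and 0.0212), and Lyz2 was 0.41. Without replicate 1 or 2 of day 0 the smallest p possible is 0.1, so none can pass, and the differences were -1.64 and -2.20 for Mrc1, -2.32 and -1.15 for Csf1r and -4.87 and -3.73 for Lyve1. Without any 1 of the 9 graft arrays they ran from -2.02 to -1.73 for Mrc1, -1.80 to -1.58 for Csf1r and -4.50 to -4.11 for Lyve1. With 45 choices the smallest p is then 0.0222, and 3 members at that p adjust to 0.0519, so the loss of the calls in 8 of these 9 settings says little about the differences.

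**Figure D4:**
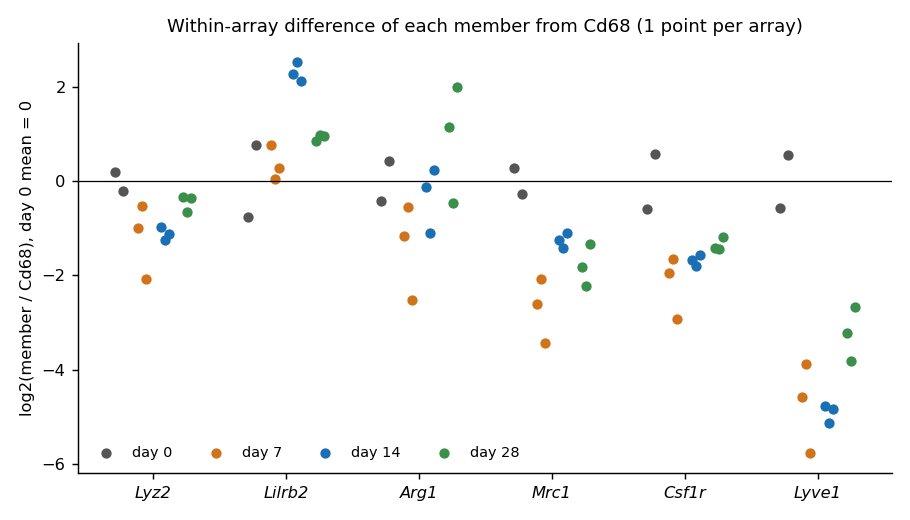
Within-array log2 difference of each member from Cd68, shifted so that the day 0 mean is 0 (y axis: log2 units; x axis: member; 1 point per array, 2 for day 0 and 3 for each graft day). All graft arrays of Lyz2, Mrc1, Csf1r and Lyve1 lie below both day 0 arrays, with the smallest gap in Lyz2, and those of Lilrb2 and Arg1 overlap the day 0 range.

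Other genes of these pathways were taken from lists, counted here without the members. Over all tested probes, 18%, 20.5% and 16.5% were called higher at days 7, 14 and 28 and 15.5%, 17.3% and 17.6% lower. Of 19 tested genes of macrophages and myeloid cells, 19 were higher at day 7, 19 at day 14 and 18 at day 28, with median changes of 3.83, 4.34 and 3.41. Itgam, a chain of the phagocyte integrin Mac-1, rose by 6.44, 6.38 and 5.12, and Mpeg1, a pore-forming protein of phagocytes, by 4.83, 6.08 and 4.18. Genes of resident macrophages were more divided: of 11 tested, 4, 6 and 4 were higher and 1, 1 and 2 lower, with medians of 1.08, 0.98 and 1.14. Folr2, a folate receptor of resident macrophages, rose by 3.32, 3.99 and 2.74 at days 7, 14 and 28. Siglec1, the sialic acid receptor of resident macrophages, fell by 3.60, 3.27 and 4.42, and its day 0 level spread from -0.74 to 3.55, with the highest value on replicate 3. Cd5l, a secreted protein of tissue macrophages, rose at day 14 (4.49 ± 1.21, limma adjusted p = 0.014), while its changes of 2.23 and 2.03 at days 7 and 28 did not pass.

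Other scavenger and lectin receptors rose as a majority. Of 16 tested, 11 were higher on each graft day and 1 was lower at day 7. Clec4e, a receptor for microbial glycolipids, rose by 6.02, 5.97 and 4.57, and Olr1, a receptor for oxidised lipoprotein, by 5.15, 4.94 and 5.50 at days 7, 14 and 28. Only 1 of the 3 day 0 arrays was well above background for Olr1. Of 10 tested inhibitory immunoglobulin-like receptors, the class of Lilrb2, 7, 6 and 6 were higher and none lower. Lilrb4 rose by 5.64, 6.08 and 4.21, Cd300lf by 5.45, 6.03 and 4.72, and Cd200r1 by 4.87, 5.94 and 4.69.

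Both ligands of the receptor encoded by Csf1r rose on all 3 graft days. Of 8 tested genes of this pathway, 5 were higher on each day and 1 was lower at day 28. Csf1 rose by 1.69, 1.54 and 1.62 and Il34 by 1.46, 2.02 and 2.29 at days 7, 14 and 28, and all 6 changes passed (limma adjusted p from 0.0015 to 0.013). The intracellular phosphatases Ptpn6 and Inpp5d, which dampen receptor signals in blood cells, rose by 4.16, 4.53 and 3.38 and by 3.01, 3.74 and 3.12.

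Of 15 tested genes of arginine metabolism, 5, 6 and 5 were higher at days 7, 14 and 28 and 1 was lower at day 14. Over all tested probes 33.5%, 37.8% and 34.1% were called in either direction, a share near that of this list at days 7 and 28. Arg2, the mitochondrial arginase, rose at day 7 (2.57 ± 0.55, limma adjusted p = 0.0053), and its changes of -0.04 and 0.30 at days 14 and 28 did not pass. Nos2, the inducible nitric oxide synthase that uses the same substrate as Arg1, rose by 2.62 at day 7 and 2.12 at day 14 (adjusted p = 0.016 and 0.035), while 0.29 at day 28 did not pass. For Nos2 and for Arg2, 1 of the 3 day 0 arrays was well above background.

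Of 18 tested genes of the response to the cytokines encoded by Il4 and Il10, 8, 8 and 5 were higher and 2, 3 and 3 lower. For this and the next 2 lists, the shares over all tested probes were 18%, 20.5% and 16.5% higher and 15.5%, 17.3% and 17.6% lower. Il10ra, a chain of the receptor for the Il10 product, was not well above background on any day 0 array and its later levels were higher by at least 40.0-fold at day 7, at least 58.4-fold at day 14 and at least 17.4-fold at day 28. Of 10 tested genes of haemoglobin and iron handling, the pathway of Cd163, 3, 5 and 3 were higher and 1 lower on each day. Hmox1, which breaks down haem, rose by 2.74 at day 14 and 3.63 at day 28 (limma adjusted p = 0.0072 and 0.0022), and its change of 1.77 at day 7 did not pass (adjusted p = 0.055). Slc11a1, a metal transporter of phagosomes, rose by 5.02, 5.43 and 4.57. Of 8 tested hyaluronan genes, the ligand system of Lyve1, 2, 3 and 2 were higher and 5, 3 and 5 lower. Has1, a hyaluronan synthase, fell by 2.95, 2.72 and 3.08, and Hmmr, a hyaluronan-binding protein of dividing cells, rose by 2.58, 3.36 and 2.98.

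**Figure D5:**
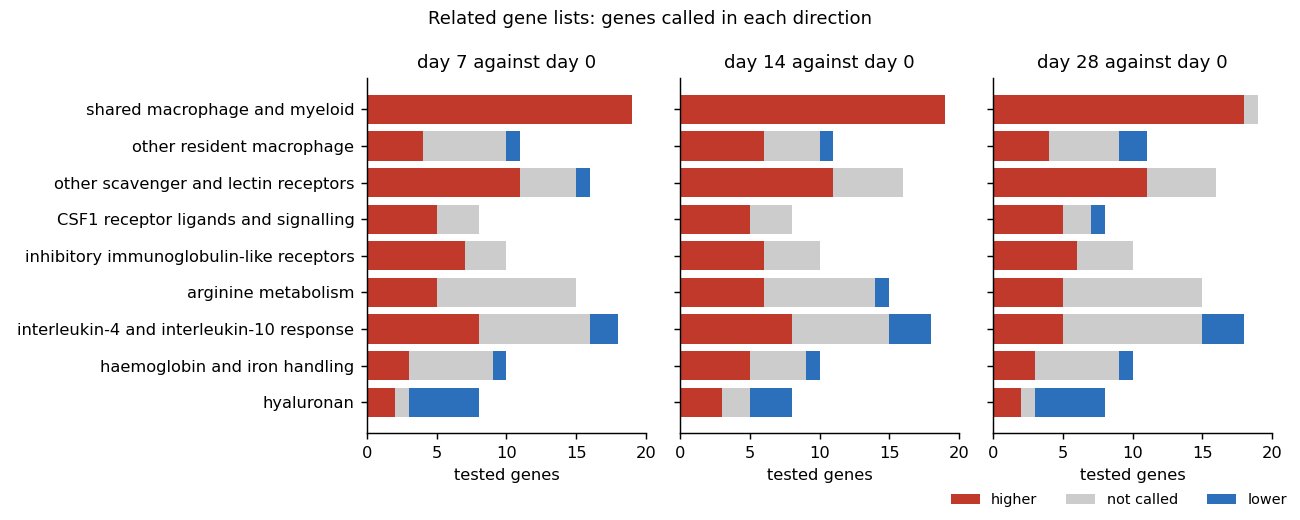
Number of tested genes of each related list called higher, called lower or not called against day 0 (x axis: tested genes; 1 panel per graft day; members are not counted). All 19 tested myeloid genes are called higher at days 7 and 14, and the hyaluronan list holds as many or more lower than higher calls on each day.

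Over the 9 graft arrays, Lilrb2, Csf1r and Mrc1 ran closest together among the members. Pearson's r was 0.94 for Lilrb2 with Csf1r, 0.91 for Lilrb2 with Mrc1 and 0.89 for Csf1r with Mrc1. It was 0.92 for Cd68 with Lyz2. Arg1 had r between -0.34 and 0.64 with the other members, highest with Lyve1, and Cd163 between -0.47 and 0.16. These points share arrays and scaling, 3 of them share each day, and r is a description only.

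The symbols with the highest r to each member over the same 9 arrays were Ribc1 (0.994) for Csf1r, Slc15a3 (0.994) for Cd68 and Thg1l (0.963) for Lyz2. They were St6galnac2 (0.982) for Lilrb2, Kif15 (0.995) for Mrc1 and Rbm12 (0.977) for Cd163. They were Chst1 (0.971) for Lyve1 and Coq8a (0.979) for Arg1. Each is the highest value over all other tested symbols.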

How the data were processed

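Each of the 12 single-colour arrays measured rat vein RNA, and each of 4 days has 3 arrays. The deposited scanner tables hold spot intensity on a linear scale, background-corrected by the scanner software, per the file headers, with no normalization between arrays recorded. The submitters' processing notes name that software as Agilent Feature Extraction, version 11.0.1.1, and the array design was annotated on rn4, per the file headers. A second table that the authors deposited has 24529 rows of processed values whose range fits a log2 scale and whose normalization is not given in the sources used here. Its column medians were 7.149 to 7.153, each of its 12 columns correlated best with its own array (r from 0.9983 to 0.9995), and its direction is settled thereby, while the step behind its common centre stays unknown.

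The scanner values were taken as log2 intensity minus each array's 75th percentile over gene probes. Over all arrays 7348 gene spots marked as outliers were left out, spots of a probe were averaged, and control spots were dropped. Of 24684 probes, 14294 matched 1 RefSeq symbol and 10390 none. The 21063 probes well above background on at least 3 arrays entered 1 limma fit of all 12 arrays (limma 3.58.1, R 4.3.3), with Benjamini-Hochberg adjustment and a threshold of 0.05. Differences from Cd68 used an exact permutation test. The scripts were tested on simulated data. The number of arrays limits the precision.

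Members and gene lists were chosen with earlier results of these data known. All members were named. From each list the up to 3 genes with the largest called change were eligible to be named, with Csf1, Il34, Nos2, Arg2 and Hmox1 whatever their values, and for likeness the symbols with the highest Pearson r. Some eligible genes are not described. Alternatives were normexp background correction (offset 50, on median signals, because the files hold no mean signal), quantile and median scaling, the deposited values, other filters, marked spots kept, the scan as a block, array weights, and leaving out arrays. The scan stands for the slide planned as a block. Promoters came from RefSeq, GRCr8.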

Additional observations from a re-analysis of the deposited data

Results flagged for a closer look

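Lilrb2 differed between graft days: its change from day 14 to day 28 was -2.45 on the log2 scale (limma adjusted p = 0.043), the contrast itself being the test. The 3 day 14 arrays, 0.78, 1.19 and 0.57, lay above the 3 day 28 arrays, -1.65, -1.60 and -1.55. It was lower in all 3 day 28 arrays, and it was the only one of 8 tested members called between graft days. Over all tested probes, 51.3% did not overlap between these 2 days and 4.75% were called. Over the alternatives that left out an array the change lay between -2.58 and -2.28, and the adjusted p between 0.012 and 0.15. The call was lost in 7 of these alternatives, and with the scan as a fixed term (limma adjusted p = 0.15).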

How the results depend on the processing

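All 16 member changes called against day 0 kept their sign under every alternative run. All 16 kept their call with quantile or median scaling, the deposited values, either filter, marked spots kept, the percentile over spots (chosen after seeing the data), a random scan term or array weights. With normexp 13 did, without the 2 non-uniform arrays 14, fitting only the arrays compared 13, and with the scan as a fixed term 5. Normexp put the median change from day 0 over all probes at 0.51, -0.08 and -0.22 for days 7, 14 and 28. The array alone on its scan adds nothing to the fixed-term fit, and the cause of the lost calls was not tested. No paired analysis was possible because every label carries the same replicate number. Each member has 1 probe, so averaging probes gives no other value.

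With the scan as a fixed term, 0, 3 and 3 members were called at days 7, 14 and 28 against day 0, 0 for day 28 against day 14, 2 for the graft mean and 1 by the F test. Array weights gave 4, 7 and 5 calls for day 14 against 7, day 28 against 14 and day 28 against 7. Without the 2 non-uniform arrays there were 1 and 2 for day 14 against 7 and day 28 against 14, and with only the arrays compared 1 and 4. For differences from Cd68, normexp gave 0. Leaving out each array gave 4 to 5, 5 to 7 and 4 to 5 calls at days 7, 14 and 28 against day 0. It gave 0 to 1, 0 to 2 and 0 to 0 for day 14 against 7, day 28 against 14 and day 28 against 7. It gave 5 to 6 for the graft mean, 5 to 6 by the F test and 0 to 4 for differences from Cd68. The shares of all tested probes called under these alternatives are not given here. The counts are therefore not read as a result about the members.

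Signs turned only in changes that had not passed, and none of the turned values is a call of the main analysis. With the scan as a fixed term, Cd163, mostly below background, was -1.93 and -0.41 at days 7 and 28, Lyve1 0.37, 0.19 and 0.56 at days 7, 14 and 28 against day 0, Lyz2 0.0841 for day 14 against 7 and Arg1 -0.33 for day 28 against 14. With array weights, Cd163 was -0.18 at day 7, Lyve1 0.0817 at day 28, and for day 14 against 7 Lyz2 was 0.20 and Cd68 0.25. Without the 2 non-uniform arrays, Cd163 was -0.23 at day 7, Mrc1 0.0256 and Lilrb2 0.0048 for day 28 against 7, and Lyz2 0.20 and Cd68 0.55 for day 14 against 7. With normexp, Cd163 was -0.0457 at day 28 against day 0 and -1.18 for day 28 against 7, and Lyz2 0.11 for day 14 against 7. With quantile scaling and the deposited values, Lyz2 was 0.0199 and 0.0201 for day 28 against 14, and Cd68 0.17 and 0.17 for day 14 against 7. Lyz2 for day 14 against 7 was 0.0133 with marked spots kept and 0.0117 with the random term. Among the differences from Cd68, Lilrb2 was -0.58 with normexp. Lyz2 and Arg1 were 0.20 and 0.23 with marked spots kept and 0.41 and 0.14 with the deposited values, and Arg1 was 0.14 without replicate 2 of day 0. Leaving out each array, values ran from -0.41 to 0.86 for Arg1 (day 28 against 14), -0.14 to 1.91 for Cd163 (28 against 7), -0.37 to 1.52 for Cd163 (7 against 0), -0.58 to 0.55 for Cd68 (14 against 7), -1.23 to 0.0048 for Lilrb2 (28 against 7), -0.48 to 0.13 for Lyve1 (28 against 0), -0.15 to 0.20 for Lyz2 (14 against 7) and -0.49 to 0.0256 for Mrc1 (28 against 7).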
